A study of Mus musculus with 12 samples.

Results

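The 9 genes described here are the clustered homeobox genes Hoxa5, Hoxa7, Hoxa9, Hoxa10, Hoxb2, Hoxb3 and Hoxb4 and the homeobox cofactors Meis1 and Pbx3. They were picked out by symbol, with earlier results of these data known, from the 56748 genes in the count tables, and 9 of 9 symbols matched an Ensembl identifier: ENSMUSG00000038253 (Hoxa5), ENSMUSG00000038236 (Hoxa7), ENSMUSG00000038227 (Hoxa9), ENSMUSG00000000938 (Hoxa10), ENSMUSG00000075588 (Hoxb2), ENSMUSG00000048763 (Hoxb3), ENSMUSG00000038692 (Hoxb4), ENSMUSG00000020160 (Meis1) and ENSMUSG00000038718 (Pbx3). All 9 passed the filter on low counts. The study sequenced bulk RNA from mouse LSK cells, the lineage-negative, Sca-1-positive and Kit-positive fraction of bone marrow that contains the stem cells and the earliest progenitors, in 6 BCR::ABL1- libraries (labelled CTRL) and 6 BCR::ABL1+ libraries (labelled CML 2wk). In both groups CD45.2 marrow of SCLtTA/BCR-ABL mice, which came from a frozen pool of several donors, had been transplanted into B6.SJL (CD45.1) recipients aged 8 to 12 weeks, irradiated with 2 doses of 4.25 Gy and given tetracycline for 2 weeks, and CD45.2+ LSK cells were sorted. BCR::ABL1 is transcribed in these mice only without tetracycline, from a transactivator driven by the SCL promoter. Tetracycline was then withdrawn for 2 weeks in the BCR::ABL1+ group and continued in the BCR::ABL1- group, so both groups carried the transgenes, the transplant and the irradiated host. The labels call all BCR::ABL1- samples male and all BCR::ABL1+ samples female, so labelled sex and BCR::ABL1 cannot be told apart, while the methods name donors and recipients of both sexes. The RNA was of cells sorted as CD45.2+ donor cells, so it speaks mainly to the sex of the donors. It went against a male label for the donor cells of the BCR::ABL1- group. Xist, which is transcribed from an inactive X chromosome, was at 3794 to 4425 CPM in BCR::ABL1- libraries and 2183 to 3502 CPM in BCR::ABL1+ libraries. The Y-linked Ddx3y had 0 to 24 and 0 to 202 counts. Its highest count was in BCR::ABL1+ replicate 2, the library with the highest summed level of the stromal markers given below.

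Hox genes encode transcription factors that lie in clusters and are read in order along the chromosome during development. In blood formation the HoxA and HoxB genes are most active in stem and early progenitor cells and are switched off as these differentiate. The proteins bind DNA together with cofactors of the TALE class of homeodomain proteins, chiefly Pbx and Meis proteins, and Hoxa9 with Meis1 is a classic transforming combination in acute myeloid leukemia. The MLL protein, encoded by Kmt2a, keeps Hox clusters active, and Polycomb complexes keep them silent.

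Upstream sequence is shown for Hoxa5 and Hoxa9, whose counts fell, for Hoxb4, whose call depended on the processing, and for Meis1, the most abundant of the 9. Each run covers the bases from 250 to 21 before the RefSeq transcript start on GRCm38.p6, read 5′ to 3′ on the strand of the gene. Capitals mark a CCAAT box or its reverse complement ATTGG, and the GC box GGGCGG or its reverse complement.

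Hoxa5, chr6:52204608-52204837, minus strand: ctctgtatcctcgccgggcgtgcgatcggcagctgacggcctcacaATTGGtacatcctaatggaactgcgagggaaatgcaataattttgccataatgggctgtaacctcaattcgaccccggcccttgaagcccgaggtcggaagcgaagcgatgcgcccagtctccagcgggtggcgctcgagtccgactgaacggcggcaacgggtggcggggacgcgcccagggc
Hoxa9, chr6:52227391-52227620, minus strand: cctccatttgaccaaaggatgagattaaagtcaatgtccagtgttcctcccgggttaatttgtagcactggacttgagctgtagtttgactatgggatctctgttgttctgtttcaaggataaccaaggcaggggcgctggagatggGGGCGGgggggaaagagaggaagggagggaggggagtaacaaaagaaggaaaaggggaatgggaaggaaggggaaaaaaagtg
Hoxb4, chr11:96318017-96318246, plus strand: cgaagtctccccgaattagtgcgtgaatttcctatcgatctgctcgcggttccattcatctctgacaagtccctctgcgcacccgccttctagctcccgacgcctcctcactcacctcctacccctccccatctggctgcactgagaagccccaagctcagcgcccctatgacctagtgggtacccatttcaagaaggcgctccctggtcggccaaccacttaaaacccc
Meis1, chr11:19018990-19019219, minus strand: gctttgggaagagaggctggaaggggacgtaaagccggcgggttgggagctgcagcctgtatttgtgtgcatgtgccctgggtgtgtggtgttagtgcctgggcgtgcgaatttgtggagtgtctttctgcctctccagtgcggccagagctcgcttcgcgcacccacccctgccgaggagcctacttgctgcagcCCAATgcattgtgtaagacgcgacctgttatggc

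RefSeq windows were found for 6 of the 9 genes, 7 windows in all since Hoxa10 has a pair of starts. Searched on both strands, CCAAT occurred in 3 of the 7 windows (Hoxa5, the downstream Hoxa10 start and Meis1) against 32.2% of all 32841 mouse promoter windows of the same length, and GGGCGG occurred in 2 (Hoxa9 and the other Hoxa10 start) against 29.8%. The downstream Hoxa10 window also held TATAAA, which occurred in 11.8% of all windows. The Hox-Pbx composite motif TGATTNAT, the Meis motif TGACAG and the E-box CACGTG occurred in 0 of the 7 windows, against 2.65%, 14.8% and 5.35% of all windows. The number of CpG dinucleotides ran from 3 in the Hoxa9 window to 24 in the Hoxa5 window, and the median over all windows was 5. No matches overlapped, and a match is only a match of letters.

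Levels are given as CPM, the count scaled to the library total with TMM factors. The groups were compared by edgeR's quasi-likelihood test over 18438 genes, and a gene was called at a Benjamini-Hochberg adjusted p under 0.05. Libraries held 22804754 to 41832868 counts in the BCR::ABL1- group and 16150817 to 25070105 in the BCR::ABL1+ group, and the mitochondrial share was 0.816% to 1.29% and 2.26% to 2.97%. Between replicates the biological coefficient of variation was 10.9% in the BCR::ABL1- group and 32.6% in the BCR::ABL1+ group. The labels do not state that each library came from a separate mouse, so p-values measure the spread between these libraries.

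Of the 9 genes, 6 were lower in BCR::ABL1+ cells (Hoxa5, Hoxa7, Hoxa9, Hoxa10, Meis1 and Pbx3), 0 were higher, and Hoxb2, Hoxb3 and Hoxb4 did not pass the threshold. Over all genes tested, 59.5% were called, 29.0% lower and 30.6% higher. The median log2 fold change of the 9 was -0.58, and that of all genes tested was 0.07. For Hoxa5, Hoxa7, Hoxa9, Meis1 and Pbx3, every BCR::ABL1+ library lay below every BCR::ABL1- library, which held for 20.6% of all genes tested. In bulk RNA, fewer cells that express a gene and less RNA per cell cannot be told apart.

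**Figure D1:**
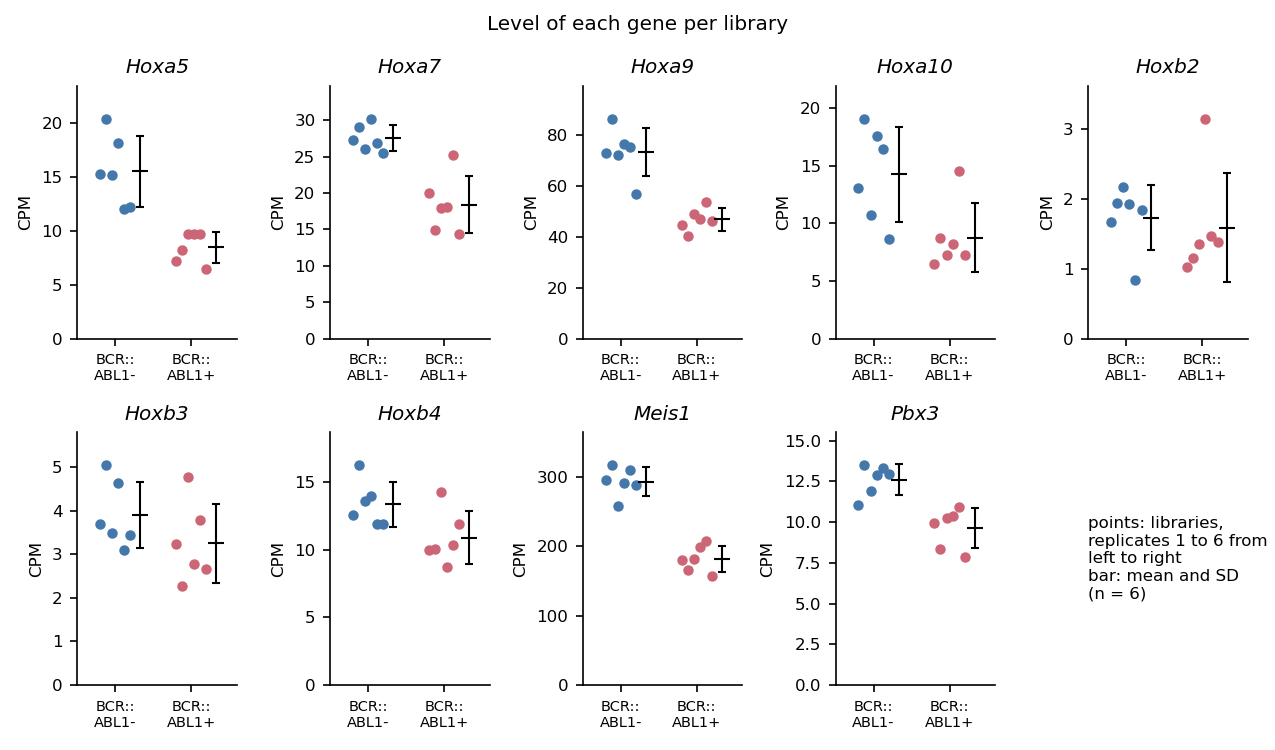
Level of the 9 genes in each library, in CPM on a linear axis from 0; points are libraries, replicates 1 to 6 from left to right, and bars are the mean and SD of 6 libraries. The groups did not overlap for Hoxa5, Hoxa7, Hoxa9, Meis1 and Pbx3, and they overlapped for Hoxa10, Hoxb2, Hoxb3 and Hoxb4.

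All 4 HoxA genes fell. Hoxa9, the HoxA gene most closely tied to stem cell self-renewal and leukemia, was at 56.5, 74.0 and 86.1 CPM in the lowest, median and highest BCR::ABL1- library and at 40.4, 46.5 and 53.6 CPM in the BCR::ABL1+ libraries. The mean fell from 73.1 ± 9.58 to 46.7 ± 4.45 CPM (SD, n = 6), a 1.57-fold decrease (log2 fold change -0.65 ± 0.09 SE, edgeR adjusted p = 2.69e-05). The lowest BCR::ABL1- library, replicate 6, stood 2.89 CPM above the highest BCR::ABL1+ library, so the groups were separate but close.

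Hoxa5, a mid-cluster gene also expressed in lung and gut development, had the largest decrease of the 9. Its lowest, median and highest values were 12.0, 15.2 and 20.4 CPM in BCR::ABL1- libraries and 6.41, 8.94 and 9.74 CPM in BCR::ABL1+ libraries. The decrease was 1.83-fold (log2 fold change -0.87 ± 0.16 SE, edgeR adjusted p = 0.000209), and no libraries of the groups overlapped.

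Hoxa7, the neighbour of Hoxa9 in the cluster, was at 25.5, 27.1 and 30.2 CPM in the lowest, median and highest BCR::ABL1- library and at 14.4, 18.0 and 25.2 CPM in the BCR::ABL1+ libraries. Its decrease was 1.50-fold (log2 fold change -0.58 ± 0.12 SE, edgeR adjusted p = 0.000766). BCR::ABL1+ replicate 5 was the highest of its group and lay 0.37 CPM below the lowest BCR::ABL1- library.

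Hoxa10, a gene of the 5′ side of the cluster that is active in early myeloid progenitors, was at 8.64, 14.8 and 19.1 CPM in the lowest, median and highest BCR::ABL1- library and at 6.46, 7.74 and 14.6 CPM in the BCR::ABL1+ libraries. It fell 1.62-fold (log2 fold change -0.70 ± 0.23 SE, edgeR adjusted p = 0.0151). BCR::ABL1+ replicate 5 came close to the BCR::ABL1- median, and the other 5 BCR::ABL1+ libraries were at or below 8.77 CPM. Among Hoxa5, Hoxa7, Hoxa9 and Hoxa10, it was Hoxa10 that varied most from library to library in both groups (SD of log2 CPM of 0.44 in BCR::ABL1- and 0.41 in BCR::ABL1+ libraries).

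The 3 HoxB genes were lower on average by smaller amounts, and none passed the threshold. Hoxb4, known for expanding stem cells when overexpressed, was at 11.9, 13.1 and 16.3 CPM in the lowest, median and highest BCR::ABL1- library and at 8.74, 10.2 and 14.3 CPM in the BCR::ABL1+ libraries. The log2 fold change was -0.29 (95% interval -0.57 to -0.02, edgeR adjusted p = 0.0585). In 4 of 21 alternatives Hoxb4 passed the threshold: it was lower with adjusted p = 0.0348 by DESeq2 and 0.0351 with edgeR and no filter, and with edgeR and 1 library left out, 0.0109 without BCR::ABL1+ replicate 3 and 0.0478 without BCR::ABL1+ replicate 6. Replicate 3 held the highest Hoxb4 value of the BCR::ABL1+ group.

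Hoxb3, which acts partly in overlap with Hoxb4, was at 3.10, 3.59 and 5.04 CPM in the lowest, median and highest BCR::ABL1- library and at 2.27, 3.00 and 4.78 CPM in the BCR::ABL1+ libraries, and the ranges largely overlapped. The log2 fold change was -0.27 (95% interval -0.69 to 0.16, edgeR adjusted p = 0.264). Hoxb2, the gene with the lowest level of the 9, was at 0.841, 1.89 and 2.17 CPM and at 1.02, 1.37 and 3.15 CPM. Its log2 fold change was -0.13 (95% interval -0.76 to 0.49, edgeR adjusted p = 0.711), and BCR::ABL1+ replicate 4 held the highest value of all 12 libraries. Without it the Hoxb2 log2 fold change was -0.45 (edgeR adjusted p = 0.126). The intervals of Hoxb3 and Hoxb2 include both 0 and decreases as large as those of Hoxa7 and Hoxa9.

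Meis1, the cofactor that stabilizes Hoxa9 and Hoxa10 on DNA, was at 257, 293 and 316 CPM in the lowest, median and highest BCR::ABL1- library and at 157, 181 and 207 CPM in the BCR::ABL1+ libraries. It fell 1.61-fold, from 292.7 ± 20.6 to 182 ± 19.0 CPM (SD, n = 6; log2 fold change -0.69 ± 0.08 SE, edgeR adjusted p = 2.65e-06). The lowest BCR::ABL1- library stood above the highest BCR::ABL1+ library by 50.1 CPM, more than the SD of either group.

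Pbx3, the Pbx protein most often linked with Hoxa9 in leukemia, was at 11.04, 12.9 and 13.5 CPM in the lowest, median and highest BCR::ABL1- library and at 7.84, 10.1 and 10.95 CPM in the BCR::ABL1+ libraries. The decrease was 1.31-fold (log2 fold change -0.39 ± 0.11 SE, edgeR adjusted p = 0.00617). The groups were separate by only 0.09 CPM, between BCR::ABL1- replicate 1 and BCR::ABL1+ replicate 5.

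The calls of Hoxa5, Hoxa7, Hoxa9, Hoxa10, Meis1 and Pbx3 held in all 21 alternatives, with the highest adjusted p at 0.0386 for Hoxa10 (edgeR, without BCR::ABL1- replicate 2). Replicate 6 of both groups carried library numbers from another series than replicates 1 to 5, which had a separate run of numbers in each group. In the other 5 replicates the log2 fold changes were -0.86 for Hoxa5, -0.53 for Hoxa7, -0.70 for Hoxa9, -0.75 for Hoxa10, -0.65 for Meis1 and -0.32 for Pbx3, with edgeR adjusted p from 1.69e-05 to 0.03. Between the replicate 6 libraries alone, the log2 ratios of these genes were -0.93, -0.83, -0.30, -0.25, -0.88 and -0.73, with no replicate check. The same ratio was -0.42 for Hoxb2, -0.37 for Hoxb3 and 0.0005 for Hoxb4. For replicates 1 to 5 the run of library numbers and the group cannot be told apart.

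**Figure D2:**
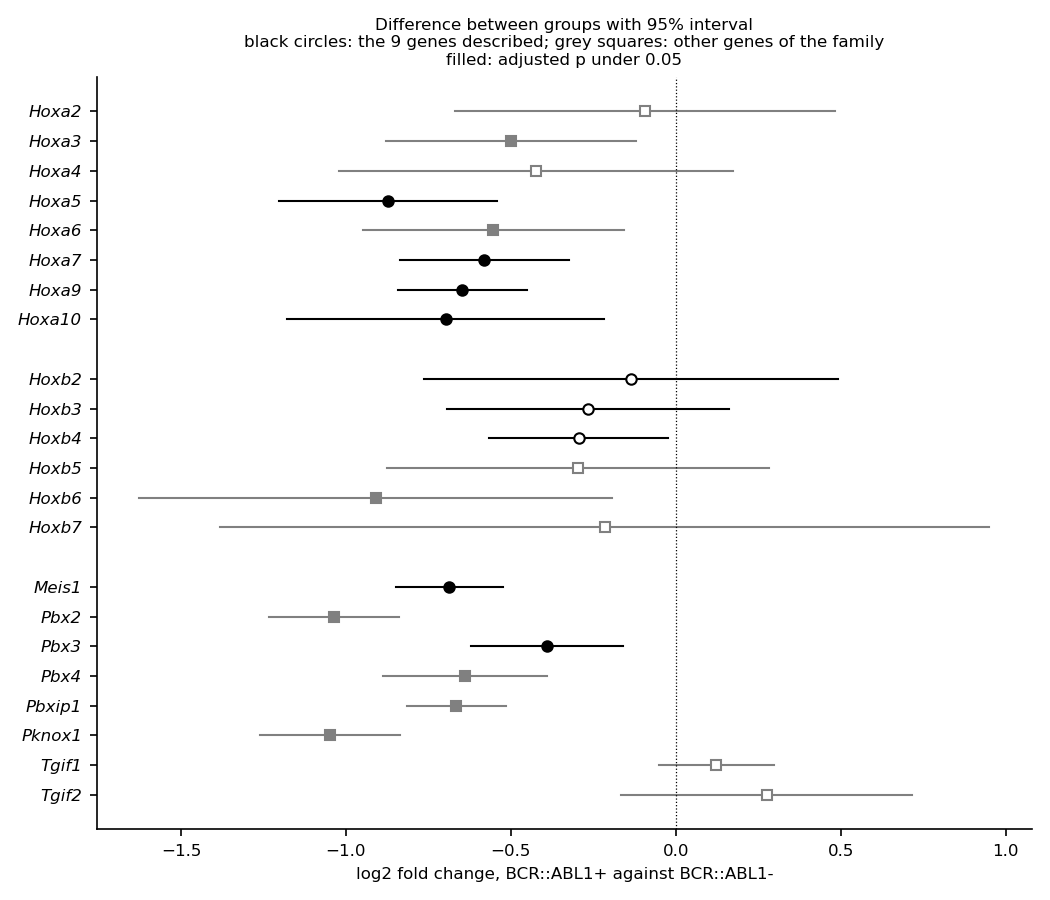
log2 fold change of BCR::ABL1+ against BCR::ABL1- libraries with its 95% interval, for the 9 genes (black circles) and the other tested Hox and TALE genes (grey squares); filled symbols had an edgeR adjusted p under 0.05. Points of 20 of the 22 genes lie below 0, and Tgif1 and Tgif2 lie above it with intervals that include 0.

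To compare levels between genes, CPM was divided by the length of all annotated exons in kilobases. In BCR::ABL1- libraries the order of mean CPM per kb was Meis1 at 27.8, Hoxa9 at 13.1, Hoxa7 at 9.56, Hoxa5 at 8.28, Hoxb4 at 5.21, Hoxa10 at 4.36, Pbx3 at 2.06, Hoxb3 at 0.917 and Hoxb2 at 0.497. The libraries of the neighbours Hoxa9 and Hoxa7, Hoxa7 and Hoxa5, and Hoxb4 and Hoxa10 overlapped in range, and the other neighbours did not. In BCR::ABL1+ libraries the ranges of Hoxa5 and Hoxb4 also overlapped, with 3.42 to 5.19 CPM per kb for Hoxa5 and 3.40 to 5.59 for Hoxb4, and Hoxa5 was the higher in 3 of 6 libraries against 6 of 6 in the BCR::ABL1- group. The ranges of Hoxb3 and Hoxb2 overlapped in the BCR::ABL1+ group as well. Meis1 was above Hoxa9 in all 12 libraries.

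**Figure D3:**
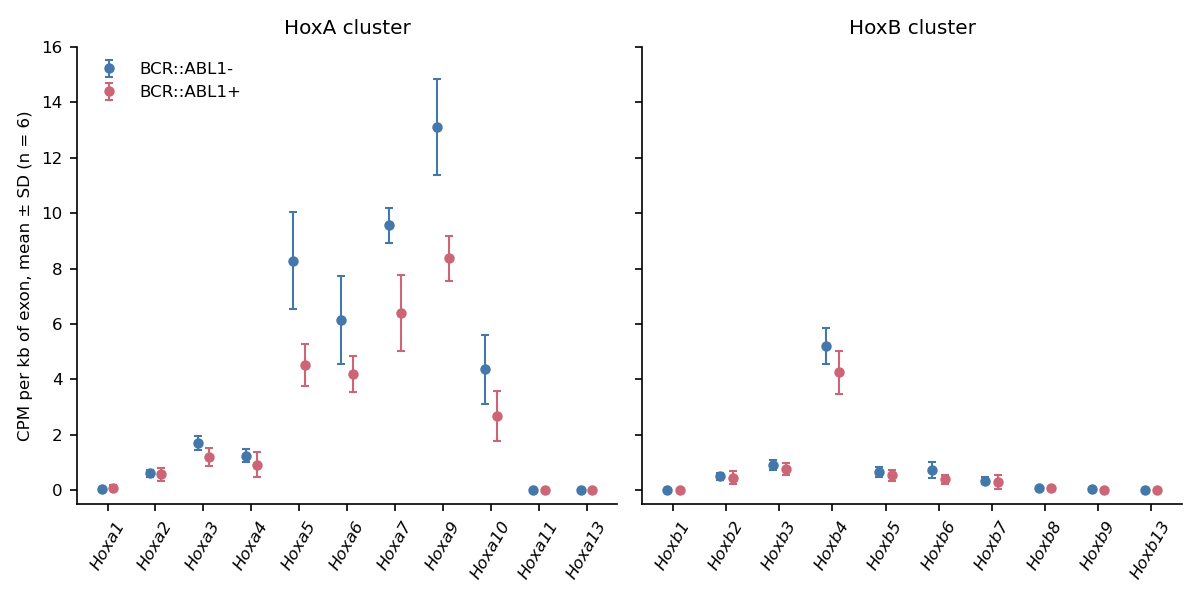
Mean level of every HoxA and HoxB gene in CPM per kb of exon, in order of gene number, with the SD of 6 libraries. Levels peaked at Hoxa9 in the HoxA cluster and at Hoxb4 in the HoxB cluster in both groups, and the BCR::ABL1+ mean was the lower from Hoxa2 to Hoxa10 and from Hoxb2 to Hoxb7.

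Reads of HoxA genes outnumbered those of HoxB genes in every library. HoxA genes took 85.3%, 86.3% and 88.6% of all HoxA and HoxB counts in the lowest, median and highest BCR::ABL1- library and 80.1%, 84.3% and 86.1% in the BCR::ABL1+ libraries. The ranges overlapped, the difference in effect between the clusters was not tested, and these shares are a description. Within the HoxA cluster the share of Hoxa9 was 49.0% ± 1.82 and 49.0% ± 3.56 (SD, n = 6). For each 100 counts of Meis1 there were 25.0 ± 3.00 counts of Hoxa9 in BCR::ABL1- libraries and 25.8 ± 2.11 in BCR::ABL1+ libraries (SD, n = 6), and the ranges of 19.6 to 28.0 and 23.6 to 29.3 overlapped.

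**Figure D4:**
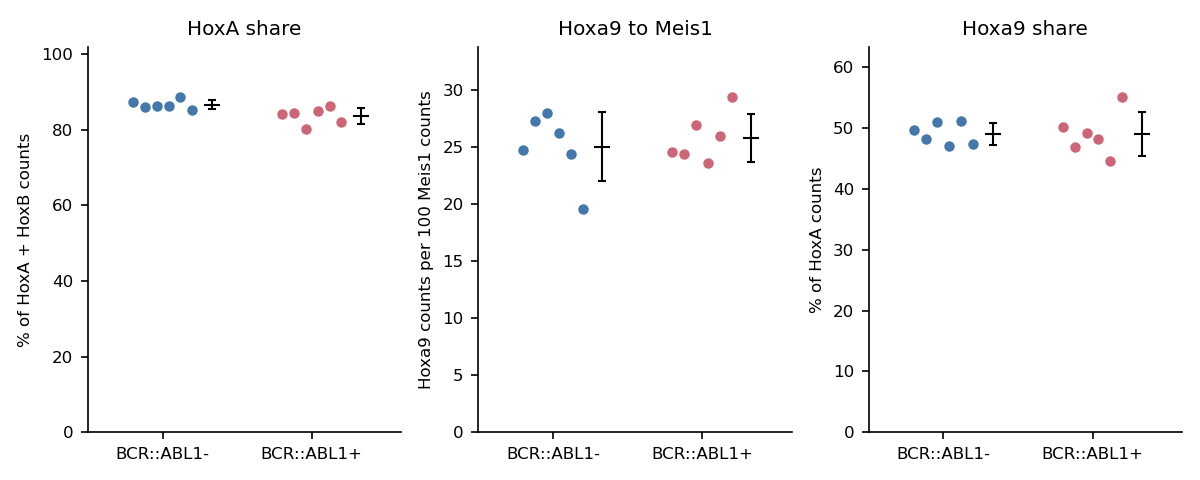
Count ratios per library on linear axes from 0: the HoxA percentage of HoxA and HoxB counts, Hoxa9 counts per 100 Meis1 counts and the Hoxa9 percentage of HoxA counts, with the mean and SD of 6 libraries. The BCR::ABL1- and BCR::ABL1+ libraries overlapped in all 3 ratios, and the Hoxa9 percentage of HoxA had a mean of 49.0% in both groups.

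Of the other 32 Hox genes of the HoxA, HoxB, HoxC and HoxD clusters, 7 passed the filter on low counts. Of these 7, 3 were lower and 0 higher, against 29.0% and 30.6% of all genes tested. Hoxa3 was at 8.83, 10.1 and 13.1 CPM in the lowest, median and highest BCR::ABL1- library and at 4.14, 7.68 and 9.64 CPM in the BCR::ABL1+ libraries (log2 fold change -0.50 ± 0.18 SE, edgeR adjusted p = 0.0245). Hoxa6 was at 3.63, 5.09 and 7.57 CPM and at 2.83, 3.74 and 4.43 CPM (log2 fold change -0.55 ± 0.18 SE, edgeR adjusted p = 0.0182). Hoxb6, the only HoxB gene called, was at 0.755, 1.30 and 2.26 CPM and at 0.345, 0.792 and 1.29 CPM (log2 fold change -0.91 ± 0.34 SE, edgeR adjusted p = 0.0296). All 3 overlapped between groups.

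The calls of Hoxa3 and Hoxb6 were close to the threshold and were lost when any of several libraries was left out, with the direction kept. Hoxa3 was at -0.42 (log2 fold change, edgeR adjusted p = 0.0607) without BCR::ABL1- replicate 2 and at -0.46 (edgeR adjusted p = 0.051) without BCR::ABL1+ replicate 1. With upper-quartile scaling it was at -0.42 (edgeR adjusted p = 0.0626) and with library totals at -0.48 (edgeR adjusted p = 0.0504). Hoxb6 was at -0.90, -0.75 and -0.81 without BCR::ABL1- replicate 1, 2 or 4 (edgeR adjusted p of 0.0525, 0.0768 and 0.0703) and at -0.77 without BCR::ABL1+ replicate 6 (edgeR adjusted p = 0.0562). Hoxa2, Hoxa4, Hoxb5 and Hoxb7 had log2 fold changes of -0.09, -0.42, -0.30 and -0.21 and edgeR adjusted p from 0.205 to 0.782.

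The HoxC and HoxD clusters were close to silent. None of their 18 genes passed the filter, the highest count of a HoxC gene was 18 (Hoxc6) and that of a HoxD gene was 11 (Hoxd8), both in BCR::ABL1+ replicate 2. In the clusters read in these cells, Hoxa13, Hoxb1 and Hoxb13 were at 0 counts in all 12 libraries, where a count of 0 allows up to 3 counts per library.

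The noncoding genes of the clusters gave 0 calls among the 4 of 14 that were tested, where 59.5% of all genes tested were called. Hoxaas3, antisense to the middle of HoxA, had a log2 fold change of -0.04 (edgeR adjusted p = 0.836), and its sign turned with upper-quartile scaling (0.03). Hoxaas2 was at -0.44, Hoxb3os at -0.23 and Hoxb5os at 0.21, with edgeR adjusted p from 0.173 to 0.41. Hotairm1, the antisense transcript at the start of HoxA, fell under the filter with counts from 3 to 10 in the BCR::ABL1- group and from 3 to 17 in the BCR::ABL1+ group. It was singled out after its values were seen, since its log2 fold change was 1.40 with an edgeR adjusted p of 0.0216 when no filter was used. Hotairm1 also passed the filter in 7 of the 12 fits without 1 library. These left out a BCR::ABL1- library or BCR::ABL1+ replicate 1, and it was called higher (edgeR adjusted p from 0.00105 to 0.0118). It passed the filter there only through the BCR::ABL1+ libraries, where it was high, so these calls are not separate support.

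Antisense genes touch several of the counts above. Hoxb3 shares 52.9% of its exon bases with Hoxb3os, Hoxb2 shares 27.3% with the same gene, and Hoxa7 shares 20.4% with Hoxaas3. Meis1 shares 9.77% with an annotated transcript on its own strand, Gm37818, and 8.51% with the antisense gene Gm16140. The strand setting of the counting is not given in the sources used here, so the reads of these genes and of their partners may not be separate, and the values of Hoxb2 and Hoxb3 are the least certain of the 9.

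Meis1 and Pbx3 were among 6 TALE genes and TALE partners that fell. Beyond Meis1 and Pbx3, 6 of 9 such genes were tested and 4 were lower, against 29.0% of all genes tested. Pbx2, a close relative of Pbx3, fell 2.05-fold, from 59.7, 65.2 and 69.4 CPM in the lowest, median and highest BCR::ABL1- library to 23.2, 32.7 and 35.9 CPM (edgeR adjusted p = 3.89e-07). Pknox1, the Meis relative also called Prep1, fell 2.07-fold (edgeR adjusted p = 6.42e-07). Pbxip1, a protein that binds Pbx and blocks it from DNA, fell 1.59-fold (edgeR adjusted p = 1.73e-06), and Pbx4 fell 1.56-fold (edgeR adjusted p = 0.00026). For these 4, every BCR::ABL1+ library lay below every BCR::ABL1- library, which held for 20.6% of all genes tested.

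Of the other TALE genes tested, Tgif1 and Tgif2, which act as repressors of TGF-beta signalling, had log2 fold changes of 0.12 and 0.28 (edgeR adjusted p of 0.208 and 0.263). Without BCR::ABL1+ replicate 1 Tgif1 was called higher (edgeR adjusted p = 0.0268). Meis2, Meis3 and Pknox2 did not pass the filter. Meis2, a close relative of Meis1, had 0 to 3 counts in BCR::ABL1- libraries and 14, 128, 3, 48, 16 and 0 counts in BCR::ABL1+ replicates 1 to 6, and it was named after its counts were seen. The high values were those of replicates 2 and 4, which also had the highest summed level of stromal markers, at 879.8 and 334 CPM, against 64.6 to 85.3 CPM in the other 4 BCR::ABL1+ libraries. The part of stromal RNA in the Meis2 counts was not tested. Without these 2 libraries, a setting chosen after seeing the data, all 6 calls among the 9 genes held.

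Of 19 genes listed as linked to Hox activation, 16 were tested. Of these, 13 were lower and 3 higher, against 29.0% and 30.6% of all genes tested, and their median log2 fold change was -0.54. Kmt2a, the MLL histone methyltransferase, fell from 507 to 209.9 CPM on average (log2 fold change -1.27 ± 0.08 SE, edgeR adjusted p = 2.43e-08). Kat6a, the MOZ acetyltransferase, fell by 1.04 on the log2 scale (edgeR adjusted p = 1.71e-08), and Dot1l, the H3K79 methyltransferase, fell by 1.06 (edgeR adjusted p = 3.06e-08). The 3 that rose were Npm1, a nucleolar chaperone and ribosome biogenesis factor (1.17, edgeR adjusted p = 1.51e-06), Xpo1, the nuclear export receptor (0.25, edgeR adjusted p = 0.0123), and Ash2l, a core subunit of the MLL complexes (0.19, edgeR adjusted p = 0.031). Ash2l was named after its values were seen. The Cdx genes, which switch on Hox clusters in the embryo, did not pass the filter.

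Polycomb genes moved in the same direction for the most part: of 13 tested, 10 were lower and 1 higher, against 29.0% and 30.6% of all genes tested. Their median log2 fold change was -0.37. Ezh1, the H3K27 methyltransferase of resting cells, fell by 0.78 on the log2 scale (edgeR adjusted p = 1.14e-07). Phc1 and Cbx2, subunits of Polycomb repressive complex 1, fell by 1.08 (edgeR adjusted p = 1.17e-06) and by 1.01 (edgeR adjusted p = 8.14e-06). Ezh2 and Suz12, the most abundant of the list, fell by 0.25 and by 0.23 (edgeR adjusted p of 0.00175 and 0.00305). Eed, the partner of both Ezh proteins, was the gene that rose (0.38, edgeR adjusted p = 0.00127) and was named after its value was seen.

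Of 15 genes known as targets of Hoxa9, Hoxa10 or Meis1, 8 were lower, 1 was higher and 6 did not pass the threshold, with a median log2 fold change of -0.39. Syk, a tyrosine kinase raised by Meis1 in leukemia, fell by 0.66 on the log2 scale, with 290.5 to 317 CPM in BCR::ABL1- libraries and 178 to 199 CPM in BCR::ABL1+ libraries (edgeR adjusted p = 1.34e-07). Sox4 and Erg, transcription factors of progenitor cells, fell by 0.95 (edgeR adjusted p = 2.07e-07) and by 1.07 (edgeR adjusted p = 6.85e-07). Lmo2, a bridging protein of the stem cell transcription factor complex, fell by 0.77 (edgeR adjusted p = 8.68e-07), and Myb fell by 0.29 (edgeR adjusted p = 0.00705). Hif1a, the oxygen-regulated transcription factor, rose by 0.62 (edgeR adjusted p = 0.00154) and was named after its value was seen. Against the share of all genes that were lower, 29.0%, these counts are a description, and nothing particular to the lists was tested.

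Within each group the 9 genes were compared library by library, with 36 pairs per group and 72 relations in all, by exact two-sided permutation tests of log2 CPM. In BCR::ABL1- libraries 32 of 36 pairs had a positive Pearson r, with a median of 0.54, and in BCR::ABL1+ libraries 29 of 36, with a median of 0.49. No pair had an adjusted p under 0.05, and 7 and 3 pairs had an unadjusted exact p under 0.05. With 6 libraries and 72 relations, an adjusted p under 0.05 needs several pairs at or near the smallest possible exact p. The lack of one therefore says little about whether the genes vary together. Meis1 and Pbx3 had r = 0.945 and Spearman's rho = 1.0 in the 6 BCR::ABL1+ libraries (exact permutation p = 0.00139, the smallest that 6 libraries can give for r, adjusted 0.05, and p = 0.00278 for rho, adjusted 0.0667), and r = 0.864 without the 2 libraries farthest from the median. In BCR::ABL1- libraries the same pair had r = 0.508 and rho = 0.6 (exact permutation p = 0.315 and 0.242, adjusted 0.582 and 0.522).

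Hoxa9 and Hoxa10 had r = 0.896 and rho = 1.0 in the 6 BCR::ABL1- libraries (exact permutation p = 0.00139 for r, adjusted 0.05, and 0.00278 for rho, adjusted 0.0667), with r = 0.985 without the 2 libraries farthest from the median. In BCR::ABL1+ libraries the pair had r = 0.577 and rho = 0.371 (exact permutation p = 0.247 and 0.497, adjusted 0.556 and 0.702). Hoxa5 and Hoxb3, which lie on different chromosomes, had r = 0.946 and rho = 1.0 in BCR::ABL1- libraries (exact permutation p of 0.00278 for both, adjusted 0.0667), and r = 0.495 and rho = 0.714 in BCR::ABL1+ libraries (exact permutation p = 0.292 and 0.136, adjusted 0.568 and 0.406). The differences between the groups' correlations were not tested, and all genes of a library share its depth and its scaling.

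**Figure D5:**
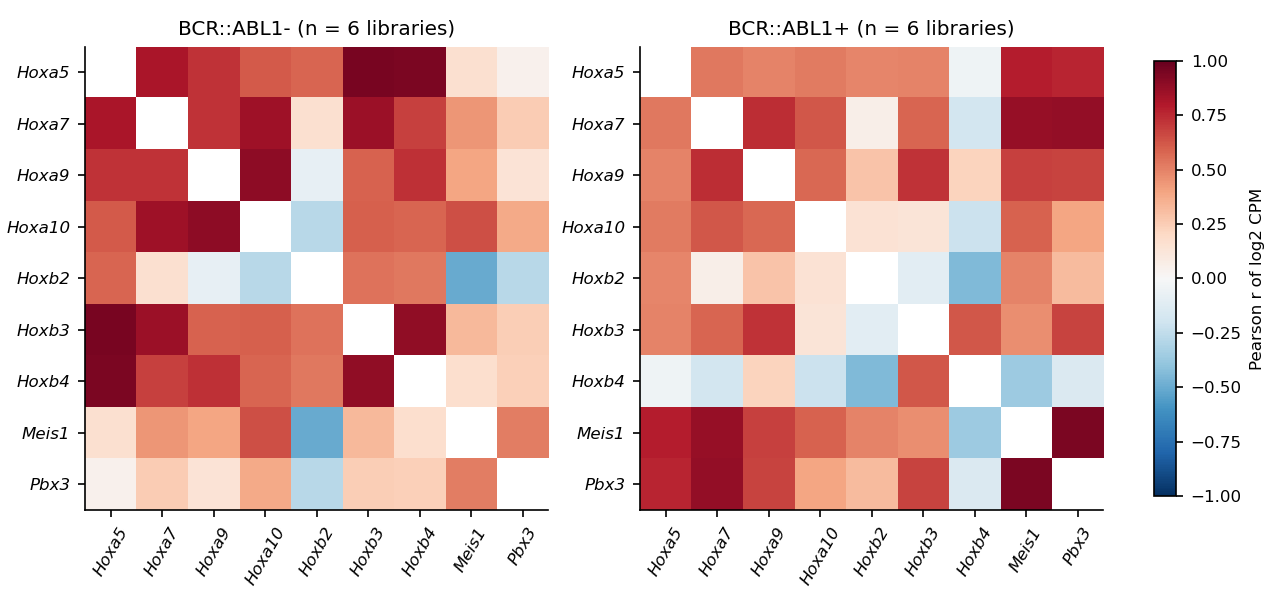
Pearson r of log2 CPM between each pair of the 9 genes over the 6 libraries of a group. Most squares are positive in both groups, and the highest r was 0.946 for Hoxa5 with Hoxb3 in BCR::ABL1- libraries and 0.945 for Meis1 with Pbx3 in BCR::ABL1+ libraries. No adjusted p was under 0.05, which 6 libraries per group can give only where several pairs are at or near the smallest possible p.

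Among the 13434 genes with a mean log2 CPM of at least 1, those with the smallest root mean square difference from a member, after centring log2 CPM over the 12 libraries, were listed for Hoxa9, Hoxb4 and Meis1. For Hoxa9 they were Gm15706 (0.087), Padi4 (0.101) and Map3k14 (0.103). For Hoxb4 they were Lpar6 (0.125), Cox6b2 (0.128) and Zfp516 (0.132). For Meis1 they were Endov (0.0667), Arhgap27 (0.0693) and Fam214a (0.0721). None of the 9 genes appeared in this list because members were left out of it. The centring kept the difference between the groups, so a similar group difference alone can bring a gene close. The genes listed for Meis1 had log2 fold changes of -0.64, -0.72 and -0.77, against -0.69 for Meis1. Shared regulation was not tested.

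Markers of the cells that the sort could hold differed between the groups in the same libraries. Among all genes tested, 29.0% were called lower and 30.6% higher. The 8 long-term stem cell markers summed to 550.5 to 735 CPM in BCR::ABL1- libraries and to 207 to 307 CPM in BCR::ABL1+ libraries, with 7 of 8 lower, and the 7 granulocyte-monocyte progenitor markers to 1901 to 2596 and 3263 to 9032 CPM, with 6 of 7 higher. A list of Kit, Ly6a, Cd34 and Ptprc summed to 1876 to 2092 and 1361 to 1688 CPM (2 of 4 lower and 1 higher). Of the genes that define the LSK gate, Kit fell 1.82-fold (edgeR adjusted p = 4.68e-06). Ly6a (Sca-1) was not called (log2 fold change 0.38, edgeR adjusted p = 0.066). Cd34, which was lower, and Ptprc, which was higher, are not part of the gate. Erythroid markers summed to 67.3 to 122.9 and 22.8 to 60.6 CPM (5 of 6 lower), and megakaryocyte markers to 276 to 322 and 90.6 to 252 CPM (5 of 5 tested lower). Mast cell and basophil markers summed to 76.4 to 166 and 389.8 to 2273 CPM (5 of 7 higher), and monocyte and macrophage markers to 122.5 to 158 and 261 to 475 CPM (1 of 6 higher). The monocyte and macrophage gene called was Ccr2, with a mean of 74.7 CPM in BCR::ABL1- and 272 CPM in BCR::ABL1+ libraries. The other 5 genes of that list were not called. B cell markers summed to 30.1 to 113 and 26.3 to 87.3 CPM (2 of 6 lower), and T and NK cell markers to 88.1 to 110.1 and 91.3 to 202 CPM (2 of 6 higher and 1 lower). Most of the T and NK sum was Nkg7, with a mean of 82.7 CPM in BCR::ABL1- and 121 CPM in BCR::ABL1+ libraries. Nkg7 and Klrb1c were called higher. Cd3e, Cd3g, Cd8a and Il7r had log2 fold changes of -1.01, -0.72, -1.89 and -0.68, and of these only Cd8a was called. Stromal markers summed to 70.7 to 101 and 64.6 to 879.8 CPM (4 of 6 tested higher). The high stromal sums were those of BCR::ABL1+ replicates 2 and 4, at 879.8 and 334 CPM. The rest of that group was at 64.6 to 85.3 CPM, within or below the BCR::ABL1- range. No marker of these lists had 3 or fewer counts in every library, and the part of cell composition in the changes of the 9 genes was not tested.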

How the data were processed

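RNA of CD45.2+ LSK cells was sequenced in 12 libraries, 6 per group. Per the labels, the authors deposited raw read counts per Ensembl gene, not normalized, with 1 table per library. The submitters' processing notes name FastQC 0.11.9, fastp 0.23.2, STAR 2.7.10a, featureCounts 2.0.1, DESeq2 1.36.0 and the build GRCm39 (mm39), whereas the study's methods name Trim Galore! and HISAT2; the annotation release and strand setting are not given in the sources used here. Symbols and exon lengths came from GENCODE on GRCm38 by Ensembl identifier (52073 of 56748 matched), and promoter windows from RefSeq on GRCm38.p6 by symbol.

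Counts were filtered with filterByExpr, scaled by TMM and tested with edgeR 4.0.16 (R 4.3.3; quasi-likelihood, groups only, all 12 libraries); 18438 genes were tested with Benjamini-Hochberg adjustment at 0.05. DESeq2 1.42.0 was an alternative, as were RLE, upper-quartile and total-count scaling, no filter and a filter of 1 CPM, a replicate block, and leaving out each library. The fitting was tested on simulated data. log2 CPM used a prior count of 2. Standard errors are the fold change divided by the root of the F statistic. No pair of libraries agreed within sampling noise (chi-square per degree of freedom of at least 4.07 between replicates). Depth ran from 16150817 to 41832868 counts.

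All lists, like the 9 genes, were chosen with earlier results of these data known. Named genes were the 9, every tested other Hox and TALE gene, and in each other list the 3 with the lowest adjusted p and the 2 with the highest mean CPM; for Hoxa9, Hoxb4 and Meis1 the 3 genes of most similar pattern were also named, and any other gene named was chosen after its values were seen. Some genes were left out of the lists and are not reported here. Same-numbered replicates did not deviate together (correlations of -0.13 to 0.07), so the fit has no block.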

Additional observations from a re-analysis of the deposited data

Results flagged for a closer look

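Of 44 sets of 6 libraries examined, 3 had a library whose gap to the next exceeded Dixon's 95% critical value, and chance gives about 2.2. Hoxa10 was at 14.6 CPM in BCR::ABL1+ replicate 5, and the next library was at 8.77 CPM. Hoxb2 was at 3.15 CPM in BCR::ABL1+ replicate 4, with the next library at 1.46 CPM. Hoxa4 was at 2.70 CPM in BCR::ABL1- replicate 2, with the next library at 2.01 CPM. Without the library concerned, the log2 fold change was -0.91 for Hoxa10 (edgeR adjusted p = 0.00127), -0.45 for Hoxb2 (edgeR adjusted p = 0.126) and -0.32 for Hoxa4 (edgeR adjusted p = 0.364).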

How the results depend on the processing

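The calls of Hoxa5, Hoxa7, Hoxa9, Hoxa10, Meis1 and Pbx3 held in all 21 alternatives, and Hoxb2 and Hoxb3 passed the threshold in none. With Hoxb4, 6 to 7 of the 9 genes were lower. The count of other Hox genes called lower ran from 1 to 3 when 1 library was left out. The count of higher TALE genes was 1 with no filter (Meis2) and ran from 0 to 1 with 1 library left out. That of higher noncoding genes was 1 with no filter and likewise ran from 0 to 1 (Hotairm1). That of higher genes linked to Hox activation was 1 with no filter. The cause of these moves was not tested. With 1 library left out, the log2 fold change of Hoxa2 ran from -0.3258 to 0.0215 (without BCR::ABL1+ replicate 1), that of Hoxb7 from -0.5931 to 0.05 (without BCR::ABL1+ replicate 2), and that of Hoxaas3 from -0.0914 to 0.0306 (above 0 without BCR::ABL1- replicate 2 or 4). Hoxb7 was at 0.2131 without BCR::ABL1+ replicates 2 and 4. Hoxaas3 was at 0.0331 with upper-quartile scaling and at 0.0047 with a filter of 1 CPM. Per kb, the median HoxA share was 84.1% (BCR::ABL1-) and 81.7% (BCR::ABL1+). The replicate block left 6 of the 9 lower and gave 4786 genes higher and 5189 genes lower, against 5637 and 5339 without it; 1 of 6 numbers correlated best with its own partner, so the numbers were not read as pairs. Upper-quartile scaling moved the median of all genes from 0.07 to 0.14. With all 12 libraries, no HoxC or HoxD gene had enough counts at this depth to pass the filter.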
